A study of Mus musculus with 6 samples.

Results

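Developmental transcription factors of the Fox, Sox, Klf, Gata, Hox and Tbx families, with the basic helix-loop-helix (bHLH) factors Tcf21 and Tcf23, were compared between lungs of tamoxifen-treated mice with and without an inducible Cre recombinase. The members were the array probes whose annotated symbol starts with a family name or is Tcf21 or Tcf23, with Klf9, Foxo1, Foxo3 and Foxj1 left out, and detected (detection p under 0.05) on 3 or more of the 6 arrays. The rule found 83 probes for 64 genes, out of 13361 tested probes, of which 12429 carried a symbol for 9383 genes. All 83 matched probes passed the detection filter, the annotation naming only probes of the authors' processed table, and 73 were detected on all 6 arrays. As 932 tested probes had no symbol here, further members may be among them, and family sizes below count named genes only. Of the 64 genes, 61 belong to a family. The other 3, Foxred1, Gatad1 and Gatad2b, share only the first letters of a family name, and they are described apart.

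Each of these families is defined by a shared DNA-binding domain: the forkhead domain of Fox proteins, the HMG box of Sox proteins, the zinc fingers of Klf and Gata proteins, the homeodomain of Hox proteins and the T-box of Tbx proteins. Members are used to specify cell types in the embryo, and many stay on in the adult cell type. In lung, Foxa1 and Foxa2 are known from airway and alveolar epithelium, Sox7, Sox17 and Sox18 and the flow-responsive Klf2 from endothelium, and Foxf1, Tbx2, Tbx4, Tbx5, Hoxa5 and Tcf21 from mesenchyme.

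Total RNA came from whole lungs of 6 adult mice, with 1 Illumina bead array for each mouse. The 3 control mice had the genotype Tmem1002loxP/2loxP and the 3 mutant mice Tmem1002loxP/2loxP;ROSA26+/CreER. All 6 mice therefore carried loxP-flanked Tmem100 alleles, and each was injected 2 times intraperitoneally with tamoxifen, at 0.1 mg/g, with lungs taken 7 days later. The ROSA26 locus is active in nearly all cell types, so CreER was not limited to endothelium. As only mutants carried CreER, effects of active CreER and effects of Tmem100 loss cannot be told apart. TMEM100 is a transmembrane protein of endothelium downstream of the receptor ALK1. Its probe gave normalized log2 intensities of 11.16, 15.36 and 10.69 in control mice 1, 2 and 3 and of 8.44, 9.43 and 9.51 in mutant mice 1, 2 and 3. The groups did not overlap, but the difference of -3.28 ± 1.15 (SE) did not pass (adjusted p = 0.0749), and without control mouse 2 it was -1.80 (adjusted p = 0.0283). No source used here says whether that probe lies within the deleted sequence.

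Median probe intensity was 333 to 363 over the arrays, and 12781 to 13749 probes were detected on each. Across tested probes, which are not independent, log2 values of mutant mouse 3 correlated at 0.979 and 0.980 with the other mutants, against 0.991 between mutants 1 and 2, while controls correlated at 0.979 to 0.987 with each other. All markers of lung epithelium that were measured, including the surfactant gene Sftpc, the alveolar type 1 gene Ager and the club cell gene Scgb1a1, were detected on all 6 arrays. With 3 arrays in each group, their number limits precision. Because whole lung was measured, fewer cells of a type and less RNA per cell cannot be told apart.

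Of the 61 family genes, 8 rose and 10 fell in mutants and 43 did not pass. A gene passed at an adjusted p below 0.05 in limma's moderated test, adjusted over all 13361 tested probes, and was represented by its probe with the highest mean. Over all 9383 genes 27.2% passed, 12.7% higher and 14.5% lower, and over all probes 26.7% passed. The family genes, with 13.1% higher and 16.4% lower, thus lay near the background. Their median log2 difference was 0.19, against 0.01 over all genes tested. The groups did not overlap for 27 of the 61 genes, beside 49.1% of all genes and 47.5% of all probes. The risers were Tcf23, Klf15, Klf13, Klf10, Hoxa2, Foxa1, Foxa2 and Foxj3. The genes that fell were Tcf21, Tbx2, Sox7, Sox17, Gata3, Gata5, Hoxa4, Hoxb2, Hoxb4 and Foxa3. Leaving out 1 mouse left 4 to 9 risers and 3 to 8 falls. Without control mouse 1 there were 4 and 3, without control mouse 2 6 and 6, without mutant mouse 1 7 and 6, and without mutant mouse 3 5 and 8. The calls of 6 genes, Tcf21, Tcf23, Tbx2, Gata5, Hoxa2 and Klf13, were kept under every alternative that measured the gene.

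**Figure D1:**
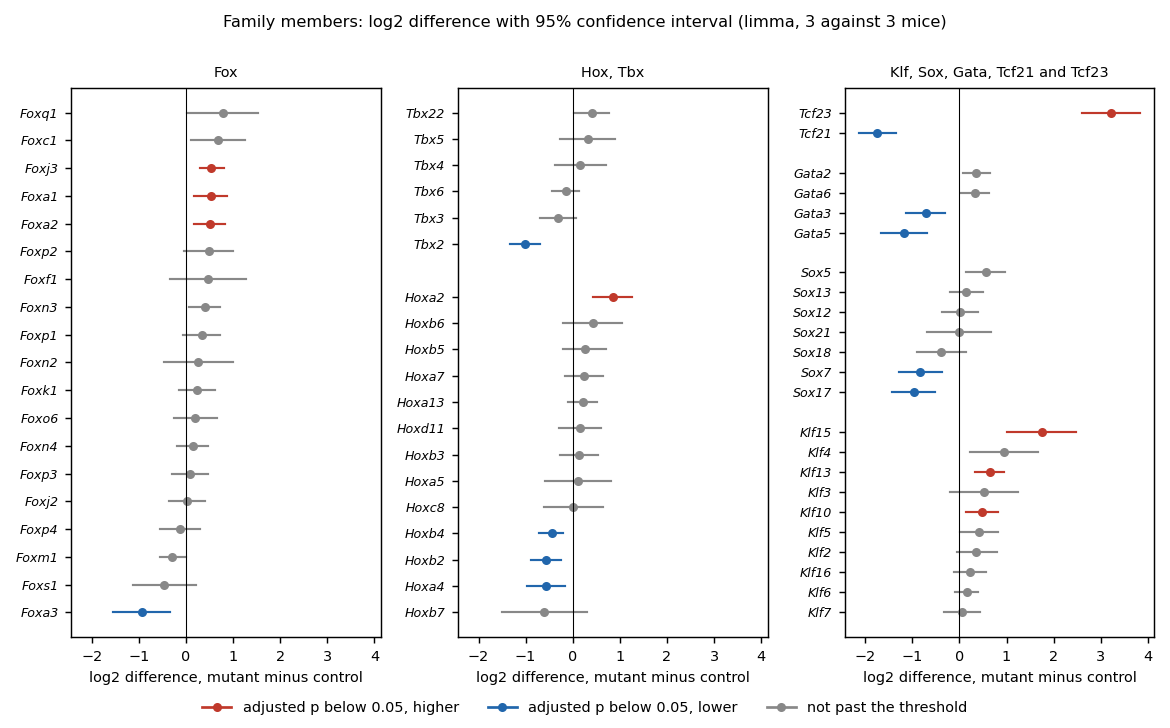
Log2 difference, mutant minus control, of each of the 61 family genes (x axis, log2 units), with the 95% confidence interval of the limma fit, red where higher, blue where lower and grey where not past an adjusted p of 0.05. Tcf23 at 3.22 and Tcf21 at -1.75 are the ends of the range, and all 10 Klf genes lie above 0. Of the 61 genes drawn 43 lie above 0, and 4797 of all 9383 tested genes had a positive difference.

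Tcf21 and Tcf23 moved in opposite directions. Tcf21, a bHLH factor required for lung and kidney mesenchyme in mouse embryos and known in adult lung from fibroblasts, fell. Controls gave log2 intensities of 12.14, 11.78 and 11.55, and mutants 10.07, 9.98 and 10.17. All mutants lay below all controls by over 1 log2 unit, and the mean was 3.36-fold lower (log2 -1.75 ± 0.17, adjusted p = 0.00265). Tcf23, a related bHLH protein known in mouse to hinder DNA binding by E proteins, rose. Controls gave 5.75, 5.78 and 6.72, and mutants 9.30, 9.19 and 9.42. The mutants were close to each other and far above the controls, of which 1 was detected. Tcf23 thus passed the detection filter through the mutants, the group where it was high. Without that filter its adjusted p in limma was 0.0029. The mean was 9.33-fold higher (log2 3.22 ± 0.26, adjusted p = 0.00252), but 2.66-fold higher without background correction, since intensities before normalization were 334, 334 and 374 in controls and 861, 818 and 876 in mutants. Of the 6 measured bHLH partners and inhibitors fixed as a list (Tcf4, Tcf12 and Id1 to Id4), 0 passed in limma (1, Id1, at an unadjusted p below 0.05), with a list median of 0.18.

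The promoters of these genes are shown because they had the largest changes in either direction. The sequences are from RefSeq, build GRCm38.p6, from 250 bases before to 50 after the start, 5′ to 3′ on the gene's strand. That of Tcf23 (chr5:30968427-30968726, plus strand) holds none of the motifs searched and is in lower case throughout. That of Tcf21 (chr10:22820094-22820393, minus strand) holds 1 GATA motif, AGATAA, in capitals.
Tcf23: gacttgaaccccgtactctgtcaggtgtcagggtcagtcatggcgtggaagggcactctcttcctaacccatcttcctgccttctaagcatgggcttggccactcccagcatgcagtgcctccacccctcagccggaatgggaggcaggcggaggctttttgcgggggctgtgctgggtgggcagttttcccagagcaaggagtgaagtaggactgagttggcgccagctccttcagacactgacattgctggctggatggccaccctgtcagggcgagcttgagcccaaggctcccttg
Tcf21: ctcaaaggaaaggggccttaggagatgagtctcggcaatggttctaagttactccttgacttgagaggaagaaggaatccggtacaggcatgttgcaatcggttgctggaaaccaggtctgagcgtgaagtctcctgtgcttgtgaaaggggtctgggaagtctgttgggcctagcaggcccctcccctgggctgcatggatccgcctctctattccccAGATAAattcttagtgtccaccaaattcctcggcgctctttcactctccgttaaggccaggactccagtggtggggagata

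Of the 6 T-box genes, Tbx2 fell, none rose (1 was higher at an unadjusted p below 0.05) and 5 did not pass. Tbx2, a repressor that keeps embryonic lung mesenchyme proliferating in mouse, had log2 intensities of 11.53, 11.38 and 11.55 in controls and 10.44, 10.66 and 10.29 in mutants. The groups were separate, and the mean was 2.03-fold lower (log2 -1.02 ± 0.13, adjusted p = 0.00452). Its relative Tbx3 was 12.61, 12.14 and 12.62 in controls and 12.05, 12.19 and 12.17 in mutants, with overlapping groups (log2 -0.32 ± 0.16, adjusted p = 0.177), and its other 2 probes did not pass either; without control mouse 2 it passed (log2 -0.48, adjusted p = 0.0499). Tbx4 and Tbx5, which act in growth of the lung bud, differed by 0.16 ± 0.23 and 0.32 ± 0.25. Tbx6 and Tbx22, known from paraxial mesoderm and from palate, differed by -0.15 ± 0.12 and 0.40 ± 0.16. The difference between Tbx2 and the other T-box genes was not tested.

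Part of the other mesenchymal measures fell beside Tcf21 and Tbx2. Of 11 measured genes on a list of other lung mesenchymal transcription factors, 5 fell and none rose, with a median of -0.55; 2 fell without control mouse 1 and 3 without control mouse 2. The homeobox genes Meox1 and Meox2 fell by 2.26 ± 0.34 and 1.56 ± 0.38 on the log2 scale. The bHLH gene Twist2 fell by 0.88 ± 0.16 and the zinc finger gene Zeb2 by 0.64 ± 0.13. For Meox1 that was 4.80-fold, or 2.24-fold without background correction. For Meox2 it was 2.95-fold or 1.93-fold, and for Twist2 1.84-fold or 1.21-fold. The call of Meox2 was lost when 1 mouse was left out (adjusted p up to 0.0843), as was that of Zeb2 (up to 0.0565). Of 7 measured fibroblast markers 5 fell, among them Col3a1 and Col1a1, while Pdgfra (-0.04 ± 0.17) and Dcn (0.22 ± 0.13) did not pass. The list median was -1.39. The summed level of that list was 14.6 to 14.7 in controls and 14.5 to 14.6 in mutants on the log2 scale. As linear intensities were summed, that level mostly reflects the brightest genes, Dcn and Pdgfra, and says little of the 5 that fell. Of 5 smooth muscle markers 4 fell, and their summed level was 14.95 to 15.62 in controls and 13.74 to 14.12 in mutants. The part of these cell types in the falls of Tcf21 and Tbx2 was not tested.

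**Figure D2:**
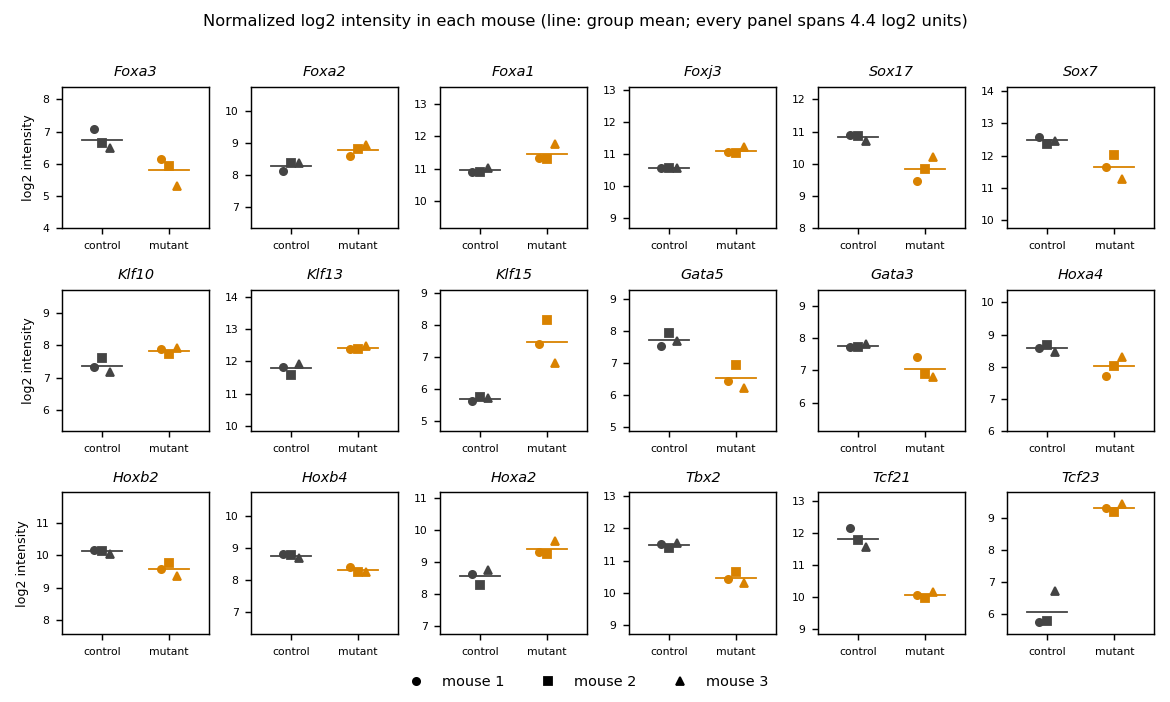
Normalized log2 intensity (y axis) of the 18 family genes past the threshold in each control (grey) and mutant (orange) mouse, with a line at the group mean and a marker shape for each mouse number. In every panel the 3 mutants lie on 1 side of the 3 controls, with the widest gap for Tcf23 and narrow gaps for Klf10 and Hoxa4.

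Of the 7 Sox genes, Sox7 and Sox17 fell and none rose (1, Sox5, was higher at an unadjusted p below 0.05). Both belong with Sox18 to the SoxF group, HMG box factors of endothelium, of which Sox17 is known for arterial identity. Sox17 gave 10.90, 10.86 and 10.70 in controls and 9.48, 9.84 and 10.22 in mutants. Mutant mouse 3 was the nearest to the controls, yet the groups did not overlap, and the mean was 1.96-fold lower (log2 -0.97 ± 0.19, adjusted p = 0.0133). Its second probe fell by 1.09 ± 0.20. Sox7 gave 12.59, 12.37 and 12.46 in controls and 11.64, 12.01 and 11.28 in mutants. Here mutant mouse 2 was the nearest, and the mean was 1.78-fold lower (log2 -0.83 ± 0.19, adjusted p = 0.0210), with a second probe falling by 0.76 ± 0.19. Sox18 gave 12.19, 12.07 and 12.03 in controls and 11.60, 12.20 and 11.32 in mutants. Mutant mouse 2 lay above all controls and the other mutants below them (log2 -0.39 ± 0.22, adjusted p = 0.231), and without mutant mouse 2 the difference was -0.63 and passed (adjusted p = 0.0352). That Sox18 differs from Sox7 and Sox17 in its response was not tested. The call of Sox17 was lost without control mouse 1 (adjusted p = 0.0541), and that of Sox7 without control mouse 1 (0.0762) or mutant mouse 1 (0.0613).

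The other Sox genes did not pass. Sox5, a SoxD gene known from cartilage, was higher in all mutants than in all controls, at 10.13, 9.80 and 10.45 in controls and 10.69, 10.76 and 10.61 in mutants (log2 0.56 ± 0.18, adjusted p = 0.0548), and 6 alternatives brought it past the threshold. The adjusted p of Sox5 was 0.0316 without background correction. Sox12, Sox13 and Sox21 differed by 0.02 ± 0.16, 0.15 ± 0.15 and -0.01 ± 0.29.

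Part of the endothelial measures fell. Of 10 pan-endothelial markers 6 fell and none rose, with a median of -0.61, a log2 summed level of 16.98 to 17.09 in controls and 16.64 to 16.86 in mutants, and all 10 detected on all arrays. Those that fell were Cdh5, Tek, Tie1, Emcn, Icam2 and Cd93. The calls of Cdh5 and Tie1 were lost with 1 mouse left out (adjusted p up to 0.137 and 0.0534). Pecam1 (-0.03 ± 0.12), Esam (0.04 ± 0.18), Egfl7 (-0.09 ± 0.13) and Ramp2 (-0.08 ± 0.11) did not pass. Of 14 other endothelial transcription factors measured, 4 fell and none rose. They were Meox2, the Ets factor Elk3 (log2 -1.10 ± 0.16), the LIM protein Lmo2 (-0.92 ± 0.17) and the repressor Bcl6b (-0.91 ± 0.22). The call of Bcl6b was lost with 1 mouse left out (adjusted p up to 0.0700). The fall of Elk3 was 2.14-fold, or 1.26-fold without background correction. Of the 10 that did not pass, 2 were higher at an unadjusted p below 0.05, Mecom (0.44 ± 0.15) and Epas1 (0.58 ± 0.24). Nr2f2 (-0.45 ± 0.19) was lower at that threshold, and all of these were named after their values were seen. The median of that list was -0.19, Meox2 is on the mesenchymal list too, and the falls numbered 2 without control mouse 1 or without mutant mouse 1. The part of endothelial cell number in the falls of Sox7 and Sox17 was not tested.

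Of the 4 Gata genes, Gata3 and Gata5 fell and Gata2 and Gata6 did not pass. In all 4 the groups did not overlap, as in 49.1% of all tested genes. Gata5, known from endocardium and other embryonic heart tissue, gave 7.54, 7.93 and 7.69 in controls and 6.44, 6.95 and 6.23 in mutants. The gap between the groups was over 0.5 log2 units, and the mean was 2.27-fold lower (log2 -1.18 ± 0.21, adjusted p = 0.0091), or 1.32-fold lower without background correction. Gata3, a factor of T cells and type 2 innate lymphoid cells, gave 7.74, 7.74 and 7.81 in controls and 7.42, 6.90 and 6.81 in mutants. It was 1.65-fold lower (log2 -0.72 ± 0.17, adjusted p = 0.0239), or 1.205-fold lower without background correction. The call was lost when any 1 mouse except mutant mouse 1 was left out (adjusted p up to 0.0727). Gata2, which acts in endothelium and blood progenitors, was higher in all mutants, at 13.63, 13.43 and 13.59 in controls and 13.82, 14.04 and 13.87 in mutants (log2 0.36 ± 0.12, adjusted p = 0.0627). Gata6, of airway epithelium and smooth muscle, gave 11.54, 11.81 and 11.78 in controls and 12.12, 11.96 and 12.04 in mutants (log2 0.33 ± 0.12, adjusted p = 0.0870). Gata2 passed as higher under 6 alternatives and Gata6 under 3, among them the omission of background correction (adjusted p = 0.0202 and 0.0350).

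Several partners of these factors were measured. Of 7 GATA cofactors and partners, 2 fell and 1 rose: the bHLH gene Lyl1 (log2 -1.28 ± 0.22) and Lmo2, both members of blood and endothelial GATA complexes, fell, and the bridging factor gene Ldb1 rose by 0.40 ± 0.11, a call lost when 1 mouse was left out (adjusted p up to 0.142). Among 6 T and NK cell markers, which bear on Gata3, 3 fell (Cd2, Nkg7 and Thy1), while the T cell receptor complex genes Cd3e, Cd3g and Cd3d differed by -0.07, -0.49 and 0.10 and did not pass. The log2 summed level of these 6 was 12.0 to 12.5 in controls and 11.5 to 11.8 in mutants. Of 4 mesothelial markers 3 fell, Upk3b, Wt1 (adjusted p up to 0.127 with 1 mouse left out) and Lrrn4, the last with no mutant array detecting it, while Msln differed by 0.06 ± 0.20. The log2 summed level of the mesothelial list was 12.6 to 13.1 in controls and 11.3 to 11.9 in mutants. The cardiac list was lower beside Gata5 as well, at 13.5 to 14.9 in controls and 11.5 to 12.5 in mutants, with 2 of its 5 genes past the threshold. The part of these cells in the Gata results was not tested.

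All 10 Klf genes had a positive difference, with a median of 0.45, and 3 rose. A positive difference was also found in 43 of the 61 family genes and in 4797 of all 9383 genes. Of all genes, 12.7% rose, and whether the Klf genes differ from that share was not tested. Klf15, which regulates amino acid and lipid metabolism and is a target of the glucocorticoid receptor, gave 5.64, 5.76 and 5.73 in controls and 7.40, 8.15 and 6.81 in mutants. It was not detected on the control arrays and was detected on every mutant array. The difference was log2 1.75 ± 0.31 (group means 5.71 and 7.45, adjusted p = 0.00949 in limma). The mutant mean was 2.84 times the lowest detected level on the control arrays. That ratio is an estimate and not a lower bound. The confidence interval of the log2 difference in limma ran from 1.01 to 2.48. Klf15 passed the detection filter only through the mutants, so its place among the 10 Klf genes rests on the group where it was high. Without that filter its adjusted p in limma was 0.0135. Before normalization its intensity was 326, 333 and 312 in controls and 427, 532 and 376 in mutants, and without background correction it was 1.44-fold higher. With the deposited processed values its adjusted p was 0.05, on the threshold and not past it. Klf13, known for control of the chemokine gene Ccl5 in T cells, gave 11.84, 11.58 and 11.92 in controls and 12.38, 12.39 and 12.48 in mutants. The groups were separate and the mutants close to each other (1.56-fold higher, log2 0.64 ± 0.13, adjusted p = 0.0134). Klf10, a TGF-beta-induced gene, gave 7.33, 7.60 and 7.16 in controls and 7.90, 7.72 and 7.91 in mutants (log2 0.48 ± 0.15, adjusted p = 0.0490), a call that ended in 12 of 16 alternatives.

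The promoter of Klf15 (chr6:90462326-90462625, plus strand) is shown because it holds the E-box CACGTG, in capitals, 3 times. That of Gata5 (chr2:180334630-180334929, minus strand), a gene that fell, holds the same motif 1 time. Both sequences are from RefSeq, GRCm38.p6, 5′ to 3′.
Klf15: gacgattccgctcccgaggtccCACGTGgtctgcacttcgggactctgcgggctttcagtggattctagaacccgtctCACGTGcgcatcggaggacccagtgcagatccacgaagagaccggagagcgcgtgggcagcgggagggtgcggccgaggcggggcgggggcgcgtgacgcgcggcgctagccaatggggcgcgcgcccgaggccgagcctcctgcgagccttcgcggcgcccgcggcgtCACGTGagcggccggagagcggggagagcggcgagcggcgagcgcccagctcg
Gata5: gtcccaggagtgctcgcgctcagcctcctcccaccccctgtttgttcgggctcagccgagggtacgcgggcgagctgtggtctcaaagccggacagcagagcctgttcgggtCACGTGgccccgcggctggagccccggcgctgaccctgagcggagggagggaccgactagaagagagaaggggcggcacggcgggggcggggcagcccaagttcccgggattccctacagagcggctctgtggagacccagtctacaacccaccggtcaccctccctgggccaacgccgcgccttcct

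Klf2 and Klf4, known from endothelium, did not pass. Klf2, which laminar flow induces in endothelium, gave 13.28, 13.31 and 13.34 in controls and 13.47, 13.49 and 14.07 in mutants (log2 0.36 ± 0.18, adjusted p = 0.171). Klf4, which shares many endothelial targets with Klf2, gave 11.35, 10.79 and 11.50 in controls and 11.73, 11.95 and 12.77 in mutants. All mutants were above all controls, the difference was 0.94 ± 0.30 (adjusted p = 0.0601), and it passed under 6 alternatives (0.0424 with the deposited processed values). The other 2 Klf4 probes differed by 0.97 ± 0.31 and 0.66 ± 0.36. Klf3, Klf5, Klf6, Klf7 and Klf16 differed by 0.53, 0.42, 0.16, 0.06 and 0.22 and did not pass. Of 8 measured kinases upstream and endothelial targets of Klf2 and Klf4, 3 fell and none rose, with a median of -0.05. The kinase gene Map2k5 (0.33 ± 0.11) and the factor gene Mef2a (0.47 ± 0.15), named after their values were seen, were higher at an unadjusted p below 0.05, and 1 or 2 genes of the list rose under 6 alternatives of background, filter, weights, variance model or deposited values and 1 without control mouse 3. Thrombomodulin (Thbd), a target that Klf2 activates, was at 10.52 or above in every control and at 9.59 or below in every mutant (2.92-fold, log2 -1.54 ± 0.24, adjusted p = 0.00676), and the receptor genes Tek and Tie1 fell by 0.89 and 0.69, the latter call being lost with 1 mouse left out (adjusted p up to 0.0534). These receptors are also among the pan-endothelial markers. The other 2 targets measured, Nos3 (0.50 ± 0.25) and Cyp1b1 (0.35 ± 0.23), were higher on average and did not pass. The factor gene Mef2c (-0.43 ± 0.16) did not pass but was lower at an unadjusted p below 0.05.

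Of the 19 Fox genes 3 rose, 1 fell and 15 did not pass, with a median of 0.26. Foxa1 and Foxa2, pioneer factors of lung epithelium that open chromatin, rose together by small amounts. Foxa1 gave 10.91, 10.91 and 11.02 in controls and 11.32, 11.31 and 11.77 in mutants (1.43-fold, log2 0.52 ± 0.15, adjusted p = 0.0456). Foxa2 gave 8.14, 8.36 and 8.36 in controls and 8.58, 8.82 and 8.94 in mutants (1.41-fold, log2 0.50 ± 0.14, adjusted p = 0.0388). Neither pair of groups overlapped, but the call of Foxa1 was lost with any 1 mouse left out (adjusted p up to 0.130), and that of Foxa2 with any 1 except mutant mouse 1 (up to 0.129). Foxa3, known from liver and from airway goblet cells, went the other way, at 7.08, 6.65 and 6.48 in controls and 6.15, 5.94 and 5.30 in mutants. It was detected on 1 mutant array (log2 -0.94 ± 0.25, adjusted p = 0.0352), and it fell 1.19-fold without background correction, where the call ended. Foxj3, a broadly expressed forkhead gene, gave 10.55, 10.57 and 10.55 in controls and 11.06, 11.02 and 11.22 in mutants (1.46-fold, log2 0.54 ± 0.11, adjusted p = 0.0133). Its other 3 probes differed by 0.31 to 0.49 and did not pass, and its call was lost without control mouse 1 (adjusted p = 0.0543).

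Of 5 alveolar type 2, 3 alveolar type 1, 5 ciliated and 2 secretory markers measured, 0 passed in limma. At an unadjusted p below 0.05, 1 of the 5 alveolar type 2 markers, Lamp3, was lower (log2 -0.37 ± 0.14, with groups that did not overlap), and 0 of the others passed. Both secretory markers, Scgb1a1 at 15.95 to 15.99 and Cyp2f2 at 15.80 to 15.99, lay at the top of the arrays' range, so a rise could not be seen in them. Of 14 measured genes on a list of other lung epithelial transcription factors, 3 rose and 1 fell, with a median of 0.18. Grhl1, a grainyhead factor, rose by 0.85 ± 0.21 on the log2 scale, the Iroquois gene Irx1 by 0.78 ± 0.17 and the Ets gene Elf3 by 0.60 ± 0.18, while Nfib fell by 0.49 ± 0.13. All 4 of these calls were lost when some single mouse was left out (adjusted p up to 0.0863, 0.0553, 0.139 and 0.106), and without control mouse 1 or control mouse 2 none of the list passed.

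The promoter of Foxa1 (chr12:57546062-57546361, minus strand, RefSeq, GRCm38.p6) is shown because it holds a forkhead motif, TGTTTAC, here on the opposite strand and in capitals, the letters that Foxa proteins themselves recognise.
Foxa1: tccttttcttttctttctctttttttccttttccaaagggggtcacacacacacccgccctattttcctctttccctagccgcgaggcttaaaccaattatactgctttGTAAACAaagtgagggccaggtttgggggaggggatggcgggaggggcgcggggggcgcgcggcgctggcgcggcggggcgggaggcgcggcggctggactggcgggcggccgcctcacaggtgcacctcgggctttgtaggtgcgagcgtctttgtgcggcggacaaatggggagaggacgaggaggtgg

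Among Fox genes that did not pass, Foxf1, a mesenchymal and endothelial factor needed for lung vessels, gave 10.33, 10.21 and 10.19 in controls and 10.18, 10.36 and 11.57 in mutants (log2 0.46 ± 0.34, adjusted p = 0.355). Foxc1, a factor of vessel and mesenchyme development, gave 6.73, 6.81 and 6.27 in controls and 7.46, 6.80 and 7.60 in mutants (log2 0.68 ± 0.25, adjusted p = 0.0798). Foxm1, which drives genes of mitosis, was lower in all mutants by its representative probe (log2 -0.29 ± 0.12, adjusted p = 0.107) and differed by -0.44 ± 0.17 by the other. Foxp1 and Foxp2, transcriptional repressors that act in airway development, differed by 0.33 ± 0.17 and 0.48 ± 0.22. The second Foxp2 probe, however, passed as higher (0.65 ± 0.20, adjusted p = 0.0487), a call lost with 1 mouse left out (up to 0.131). Foxp3, the factor of regulatory T cells, differed by 0.08 ± 0.16. The remaining members Foxj2, Foxk1, Foxn2, Foxn3, Foxn4, Foxo6, Foxp4, Foxq1 and Foxs1 differed by -0.46 to 0.78. The Hedgehog pathway, which acts upstream of Foxf1 in the embryo, was measured by 3 of 13 listed genes. Shh, its ligand gene in airway epithelium, differed by -0.02 ± 0.12. Its signal transducer gene Smo fell by 0.62 ± 0.16 and its antagonist gene Hhip by 1.10 ± 0.20, the first a call lost with 1 mouse left out (adjusted p up to 0.0709).

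Of the 13 Hox genes, Hoxa2 rose, Hoxa4, Hoxb2 and Hoxb4 fell, and 9 did not pass. Hox genes lie in clusters and give cells their position along the body axis. Hoxa2 gave 8.63, 8.29 and 8.76 in controls and 9.31, 9.26 and 9.64 in mutants (1.80-fold higher, log2 0.85 ± 0.17, adjusted p = 0.0137). The groups were separate, but its second probe differed by 0.27 ± 0.14 and did not pass. In the same cluster, on chromosome 6, Hoxa4 gave 8.58, 8.69 and 8.45 in controls and 7.70, 8.02 and 8.30 in mutants (log2 -0.57 ± 0.17, adjusted p = 0.0478), a call lost in 8 of 16 alternatives. Hoxa5, needed for lung development in mouse, gave 12.62, 12.48 and 12.54 in controls and 12.21, 12.38 and 13.40 in mutants (log2 0.12 ± 0.30, adjusted p = 0.797). Hoxa7 and Hoxa13 differed by 0.24 ± 0.17 and 0.21 ± 0.13.

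In the Hoxb cluster, on chromosome 11, Hoxb2 and Hoxb4 fell and the other 4 genes measured did not pass. Hoxb2 gave 10.17, 10.15 and 10.05 in controls and 9.59, 9.76 and 9.35 in mutants (1.47-fold lower, log2 -0.56 ± 0.14, adjusted p = 0.0245). Hoxb4 gave 8.80, 8.78 and 8.68 in controls and 8.39, 8.24 and 8.26 in mutants (1.37-fold lower, log2 -0.45 ± 0.11, adjusted p = 0.0231). For both, controls were tightly grouped and every mutant lay below them, and both calls were lost without control mouse 1, control mouse 2 or mutant mouse 1 (adjusted p up to 0.0853 for Hoxb2 and up to 0.0857 for Hoxb4). The Hoxb4 call was also lost without mutant mouse 2 (adjusted p = 0.0695) and with the mouse number as a block (0.0602). Hoxb3, Hoxb5, Hoxb6 and Hoxb7 differed by 0.13 ± 0.17, 0.25 ± 0.19, 0.42 ± 0.26 and -0.60 ± 0.38. The last 3 were lowest among controls in control mouse 2, at 11.32, 7.22 and 6.90. Hoxc8 and Hoxd11, of the other clusters, differed by 0.01 ± 0.26 and 0.15 ± 0.19. Of 7 measured Hox cofactors, 1 rose and 2 fell. Pbx3, at 6.13 to 6.66 in controls, rose by 0.98 ± 0.16 on the log2 scale (adjusted p = 0.00721). That was 1.97-fold, or 1.225-fold without background correction. With the deposited processed values, or with detection p below 0.01 on all 6 arrays, 0 of the cofactors rose, and with array weights 2 did. Meis1 fell by 0.55 ± 0.11 (adjusted p = 0.0122, up to 0.0550 with 1 mouse left out) and Pknox2 by 1.09 ± 0.16 (adjusted p = 0.00609). All 3 encode TALE homeodomain proteins that bind DNA with Hox proteins.

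**Figure D3:**
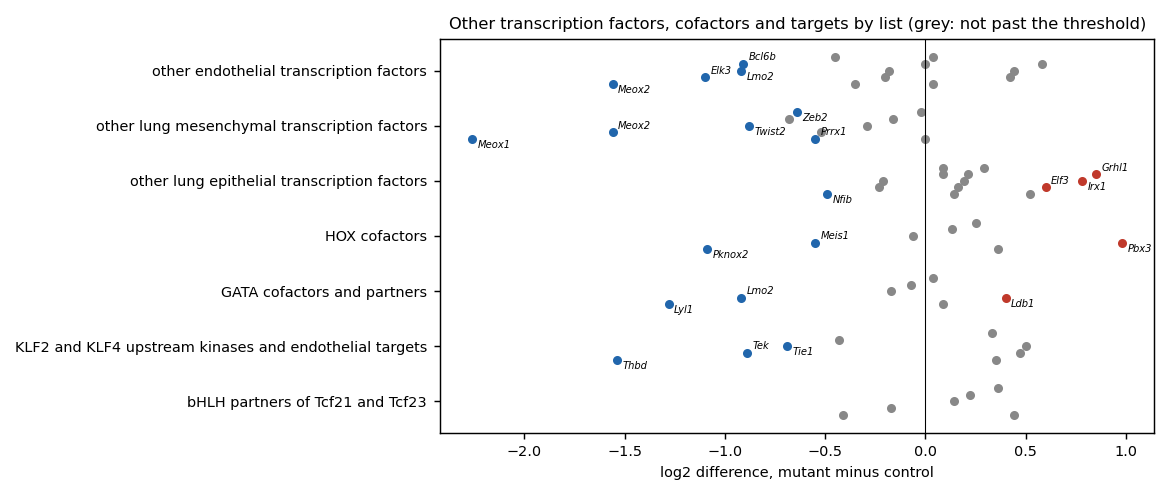
Log2 difference, mutant minus control (x axis), of each measured gene on 7 lists of other transcription factors, cofactors and targets (y axis), red where higher, blue where lower and grey where not past an adjusted p of 0.05. Meox1 at -2.26 is the lowest, and on the endothelial and mesenchymal lists every gene past the threshold lies below 0.

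Of the genes that share only letters with a family, Gatad2b, a subunit of a chromatin remodelling complex, rose by 0.57 ± 0.13 on the log2 scale (adjusted p = 0.0186; up to 0.0730 with 1 mouse left out). Gatad1 and Foxred1, a mitochondrial oxidoreductase gene, differed by 0.07 ± 0.14 and 0.28 ± 0.14 and did not pass, although 1 of the 4 Foxred1 probes did (0.51 ± 0.11, adjusted p = 0.0189; up to 0.0686 with 1 mouse left out).

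Mutant mouse 3 lay away from the other mutants in several members, in both directions. In 8 of the 61 family genes (13.1%, against 8.44% of all tested genes) its value was at least 0.5 log2 units above the mean of mutant mice 1 and 2. In as many family genes, 8 (13.1%, against 9.18% of all tested genes), it was at least 0.5 log2 units below that mean. The genes higher in that mouse were Foxf1, Foxq1, Foxs1, Hoxa5, Klf2, Klf3, Klf4 and Sox17. For Foxf1, Hoxa5, Klf2 and Klf3 the mean difference rested largely on that mouse: without it the log2 difference was 0.02 for Foxf1, -0.25 for Hoxa5, 0.17 for Klf2 and 0.17 for Klf3. For Klf4 it was 0.63 without that mouse, and for Sox17 it was -1.16. Control mouse 2 was at least 0.5 log2 units below the mean of the other controls in 10 family genes (16.4%, against 5.90% of all tested genes). These genes were named after their values were seen, and no test was made of either pattern.

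**Figure D4:**
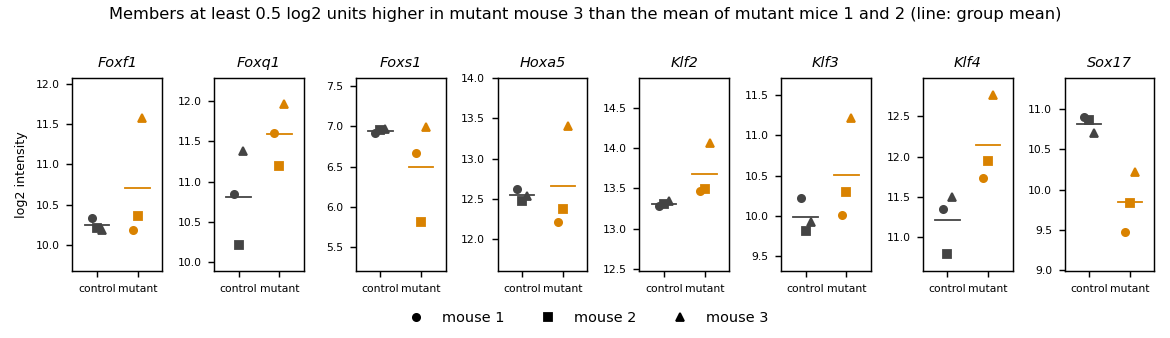
Normalized log2 intensity (y axis) in each control (grey) and mutant (orange) mouse of the 8 family genes at least 0.5 log2 units higher in mutant mouse 3 (triangle) than the mean of mutant mice 1 and 2. For Foxf1 and Hoxa5 the other mutants lie near or below the controls.

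Each motif searched was in few of the members' promoter windows. RefSeq gave 45 windows of 300 bases for 36 of the 61 family genes, searched on both strands with motifs chosen after the sequences were seen. The E-box CACGTG, which Myc and clock-type bHLH factors recognise, was in 5 of the 45 windows (11.1%), against 7.15% of all 32851 windows, in Gata5, Hoxd11, Klf4, Klf6 and Klf15. The forkhead motif TGTTTAC was in 2 (4.44%, against 3.65%), those of Foxa1 and Sox12. The GATA motif AGATAA was in 4 (8.89%, against 11.2%), and the GC box GGGGCGGGG, which Klf proteins can bind, was in 7 (15.6%, against 11.4%), including those of Klf2, Klf3, Klf4, Klf13 and Klf15. It occurs in the printed Klf15 and Gata5 promoters too, where only the E-box is in capitals. A match is a run of letters and shows no binding.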

How the data were processed

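Per the labels' protocols, 550 ng of total RNA from each of 6 lungs was amplified into biotinylated cRNA for Illumina mouse bead arrays. The authors' deposited unnormalized table gives, per the file headers, a linear intensity of 25697 probes on each array beside a detection p-value. The submitters' processing notes name R 2.4.1 and GenomeStudio 2009.2 without a role. The authors' second deposited table holds log2 values of 13261 probes, and every column has the same distribution, as after quantile normalization. How its probes were chosen is not stated. Its columns of mutant mice 1 and 2 are identical, so it was used as an alternative only, without mutant mouse 1.

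In R 4.3.3, limma 3.58.1 supplied the normalization (neqc), with negative controls inferred from the detection p-values (about 798 beads) and an offset of 16, and the fit (lmFit and eBayes, without covariates). Benjamini-Hochberg adjustment ran over all 13361 tested probes. Differences are mutant minus control with a standard error, from 3 mice per group. The mice are separate animals, and no batch is given. Symbols came from the platform annotation, which names 12495 probes, checked by Entrez identifier against the RefSeq genes of GRCm38.p6, where 0 symbols changed. Of the tested probes 932 had no symbol here. The fit was tested on simulated data.

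Every family gene past the threshold was named, with other factors of known role in lung or vessels, the lowest p of each family, and up to 4 genes past the threshold of each list of partners. Members and lists were chosen with earlier results of these data known, so they are no independent evidence. Of 24 lists, those for skeletal muscle (1 of 1 measured genes fell), adipocytes (1 of 3 fell), B cells (1 of 2 fell), eosinophils and mast cells (0 of 1 passed in limma), Schwann cells (0 of 4 genes measured) and lymphocyte factors (2 of 4 fell, Gata3 and Bcl11b) are not described further. Alternatives were other background corrections, scalings and filters, the deposited processed values, other variance models, averaging a gene's probes, the mouse number as a block and leaving out each mouse.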

Additional observations from a re-analysis of the deposited data

How the results depend on the processing

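No member gene past the threshold changed direction under any of the 16 alternatives, or 15 where a filter removed the probe. The count of risers among family genes was 14 with array weights and 5 without a filter on dim probes. Sox risers, 0 as reported, numbered 1 with array weights, the stricter filter, no background correction, normexp or a variance trend. Gata risers, also 0, numbered 2 with array weights, no background correction or a variance trend and 1 with the deposited processed values, the stricter filter or normexp. With array weights 1 Tbx gene rose and 2 fell. The fall of a Fox gene was absent (0) with the deposited processed values, the stricter filter, no background correction or no filter, and without a filter 1 Fox gene rose. The stricter filter (detection p below 0.01 on all 6 arrays, 10189 probes) removed Tcf23, leaving 0 Tcf risers, and left 1 Gata fall. Foxa3, Gata5, Klf15 and Tcf23 failed that filter and were not tested there, Klf4 passing in place of Klf15 (adjusted p = 0.0460), and for the other changes the cause was not tested. With single mice left out, the counts ranged from 774 to 1527 probes higher and 890 to 1540 lower, against 1774 and 1799 (lowest without control mouse 1), from 4 to 9 family risers and 3 to 8 falls, from 0 to 3 Fox risers and 0 to 1 falls, 0 to 1 Sox risers and 0 to 3 falls, 2 to 3 Klf risers, 1 to 2 Gata falls, 1 Hox riser and 0 to 3 Hox falls, 0 to 1 Tbx risers and 1 to 2 falls, and from -4.13 to -1.80 for Tmem100. Deviations of mice with the same number correlated at -0.0857, -0.014 and -0.0364. No control mouse correlated best with the mutant of its number, so no sign of pairing by number was seen. With 3 mice in each group these correlations cannot exclude a pairing. Counts of 0 risers became 1 on the list of endothelial factors (array weights, stricter filter) and on the bHLH list (stricter filter, no background correction, normexp, variance trend). With the number as a block, 1242 probes were higher and 1400 lower, and 1 Hox gene fell in place of 3.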
